A study of Mus musculus with 23 samples.

Results

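The RNA of 8 cathepsins, the main proteases of the lysosome, and of the lysosomal membrane proteins *Lamp1* and *Lamp2* was followed in the mouse pancreas after caerulein pancreatitis. The genes were taken by name: *Ctsb*, *Ctsl*, *Ctsd*, *Ctsz*, *Ctsh*, *Ctss*, *Ctsk*, *Ctsc*, *Lamp1* and *Lamp2*, which are 10 of the 18512 gene symbols in the count files, and all 10 were among the 12195 genes that passed the filter on low counts. The samples were the head of the pancreas of 23 C57BL/6 mice, 6 to 8 weeks old, and each library was 1 mouse. A baseline group of 8 non-injured mice (4 females and 4 males) was compared with 8 mice at day 7 (4 females and 4 males) and 7 mice at day 14 (3 females and 4 males). Both post-injury groups had received caerulein, a cholecystokinin analog that overstimulates acinar cells, at 50 µg/kg in 8 hourly intraperitoneal injections on 2 consecutive days. The labels do not say whether baseline mice received vehicle injections. Whole tissue was sequenced, so fewer cells of a type and less RNA per cell cannot be told apart.

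Cathepsins are made as inactive precursors in the endoplasmic reticulum, carried to the lysosome by mannose 6-phosphate receptors and activated there by low pH. In the acinar cell they have another role, because cathepsin B can cut trypsinogen to trypsin when zymogens and lysosomal enzymes meet in 1 vesicle during pancreatitis, whereas cathepsin L can cut trypsinogen to an inactive form. *Lamp1* and *Lamp2* encode heavily glycosylated proteins that line the inner face of the lysosomal membrane, and LAMP2 is needed for autophagosomes to fuse with lysosomes. These are RNA measurements, and neither enzyme activity nor the place of a protein in the cell was measured.

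At day 7 post-injury, *Ctsh*, *Ctsk*, *Ctsd* and *Lamp2* rose and *Lamp1* fell against baseline after TMM scaling (adjusted p at most 0.05 in edgeR's quasi-likelihood test), whereas all 10 genes rose when libraries were scaled by their total counts, which moved the median log2 fold change of all genes from 0.022 to 0.47. *Ctsh* and *Ctsk* also passed the fold threshold of 1.5 and so were DEGs, with 1.66-fold and 1.71-fold higher levels. *Ctsb* RNA, that of the trypsinogen-cutting enzyme, was 1.04-fold of baseline and did not pass the test. At day 14, 0 of the 10 genes passed the test. Beside the 4 of 10 genes that rose at day 7, 8.86% of all tested genes rose, and beside the 1 that fell, 9.7% of all tested genes fell. Of all tested genes, 3.82% were DEGs with higher levels at day 7. The median log2 fold change of the 10 genes at day 7 was 0.17. The calls of *Ctsh* and *Ctsk* held with any 1 mouse left out (adjusted p-values up to 0.0112 and 0.015), but within 1 sex neither passed.

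**Figure D1:**
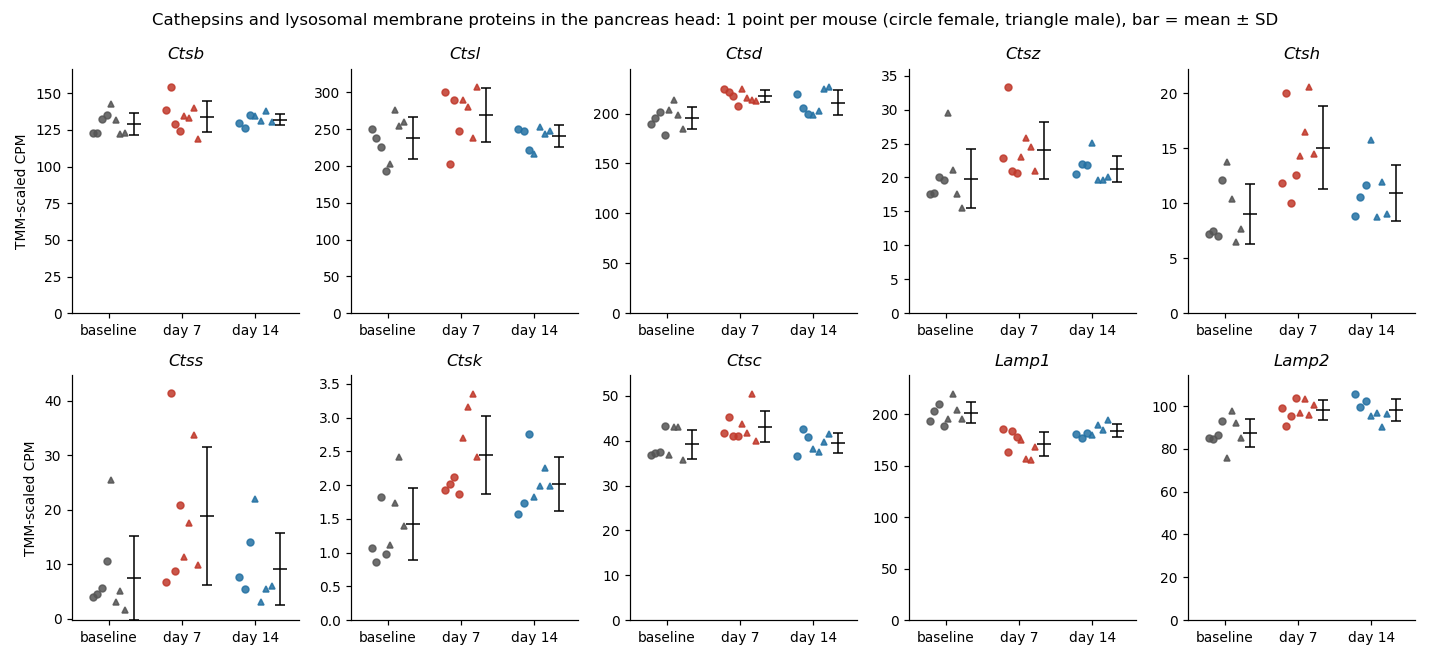
Level of each of the 10 genes in each of the 23 mice, in CPM (counts relative to the TMM-scaled library size) on a linear axis, by time point (circles female, triangles male); the bar beside each group is the mean ± SD. The 8 day 7 points of *Lamp1* (156 to 186 CPM) lie below all 8 baseline points (188 to 220 CPM), and *Ctss* spreads most relative to its mean (SD of 103% of the mean at baseline).

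Libraries held 7059890 to 9567446 counts, and 14641 to 16653 symbols had at least 1 count. A few digestive enzyme genes made up most of each library: the 20 most abundant genes took 66.4% to 71.2% of the counts in baseline mice, 55.3% to 62.8% in day 7 mice and 63.9% to 66.2% in day 14 mice. The 16 acinar marker genes summed to 484566 to 714472 CPM in baseline mice and 293307 to 437172 CPM in day 7 mice, and 14 of the 16 fell (9 fell and 2 rose with total count scaling). Of the other cell types, 10 of 14 macrophage markers and 9 of 9 fibroblast markers rose at day 7, as did 3 of 6 islet, 4 of 5 erythroid and 2 of 6 duct markers, while 1 of 6 endothelial markers fell (0 with total count scaling). The erythroid markers *Hba-a1* and *Hba-a2* had identical values and are not separate results. Erythroid markers summed to 672 CPM in day 7 mouse 15 and to 24.3 to 135 CPM in the other day 7 mice. Of the tested dendritic cell (5), lymphocyte (4) and adipocyte (5) markers 0 passed. Lymphocyte markers were unevenly spread over the mice: their sum was over 3 times the median of all mice in 7 mice, which were 2 at baseline, 3 at day 7 and 2 at day 14.

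Levels were set side by side per kilobase of exon, as CPM per kb of the union of annotated exons (GENCODE vM21, GRCm38). At baseline *Ctsd*, the lysosomal aspartic protease, was highest with a median of 83.7 CPM per kb, followed by *Lamp1* at 74.5, *Ctsl* at 37.7 and *Ctsb* at 21.1. The lower ranks were held by *Ctsz* at 12.9, *Lamp2* at 8.98, *Ctsc* at 6.43, *Ctss* at 3.54, *Ctsh* at 1.69 and *Ctsk* at 0.826 CPM per kb. The medians of *Ctsd* and *Ctsk* differed by 101-fold. These ranks depend on the length of the union of exons, which was 6489 bases for *Ctsl* and 2351 for *Ctsd*. By CPM without length, *Ctsl* had the highest baseline median, 245, against 199 for *Lamp1* and 197 for *Ctsd*. At baseline the ranges over mice overlapped for the neighbours *Ctsd* and *Lamp1*, *Ctsb* and *Ctsz*, *Ctsc* and *Ctss*, *Ctss* and *Ctsh*, and *Ctsh* and *Ctsk*. At day 7 *Ctss*, at 10.7 CPM per kb, stood above *Lamp2* at 10.2 in the order of medians, but their ranges overlapped. Overlapping neighbours at day 7 were also *Ctsb* and *Ctsz*, and *Ctsz* and *Ctss*. At day 14 the order was that of baseline, and *Ctss* overlapped with *Ctsc* above it and *Ctsh* below it.

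The 8 cathepsins together took 0.0512% to 0.06% of all counts in baseline mice, 0.0765% to 0.101% in day 7 mice and 0.064% to 0.068% in day 14 mice. The 3 groups did not overlap on this measure. It is the scale of total count scaling, on which 9272 of all 12195 tested genes rose at day 7. Without the 20 most abundant genes in the denominator, the shares were 0.173% to 0.195%, 0.203% to 0.225% and 0.187% to 0.194%, and baseline and day 14 then overlapped. On that scale 1885 of all tested genes rose and 768 fell at day 7. How many other genes or sums of genes separate the groups in this way was not computed. *Ctsb*, *Ctsl* and *Ctsd* made up 87.7% of the cathepsin counts at baseline, 85.4% at day 7 and 87.5% at day 14, so the sum follows these 3 genes.

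RNA of the enzymes that act on trypsinogen, *Ctsb* and *Ctsl*, did not pass the test at day 7 or day 14. Both passed with total count scaling, and *Ctsl* passed at day 7 with some other settings too. *Ctsb* (chromosome 14, 63122462 to 63145923, plus strand) had 122 to 143 CPM at baseline with a median of 128, 119 to 154 CPM at day 7 with a median of 134, and 126 to 138 CPM at day 14 with a median of 131. The groups overlapped almost completely, and the highest value was that of mouse 10 at day 7. Its log2 fold change was 0.054 at day 7 (2 SE on either side, -0.05 to 0.16; adjusted p = 0.501) and 0.032 at day 14 (-0.08 to 0.14; adjusted p = 0.882). With total count scaling the day 7 log2 fold change of *Ctsb* was 0.51 (adjusted p = 1.08e-05). *Ctsl* (chromosome 13, 64359337 to 64370890, minus strand) had 193 to 276 CPM at baseline with a median of 245, 203 to 308 CPM at day 7 with a median of 285, and 216 to 253 CPM at day 14 with a median of 248. Of the 8 day 7 mice 5 were above every baseline mouse, but mouse 10 lay among the lowest baseline mice. The log2 fold change of *Ctsl* at day 7 was 0.18 ± 0.08 (SE), with an adjusted p of 0.113. With total count scaling it was 0.63 (adjusted p = 5.71e-10), and with total counts without the 20 most abundant genes 0.26 (adjusted p = 0.00358). With at least 10 counts required in every mouse it was 0.20 (adjusted p = 0.0462). With the TMM scaling and without mouse 10 it was 0.23 with an adjusted p of 0.0313.

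*Ctsd* encodes the aspartic protease that can also process cathepsin B, and it rose modestly. It lies on chromosome 7 (142375911 to 142388038, minus strand). Its level was 179 to 213 CPM at baseline with a median of 197, 208 to 225 CPM at day 7 with a median of 217, and 199 to 227 CPM at day 14 with a median of 205. The baseline and day 7 groups overlapped only at the highest baseline mouse, mouse 6. At day 7 the log2 fold change was 0.15 ± 0.049 (SE; adjusted p = 0.028), and at day 14 it was 0.11 ± 0.05 (adjusted p = 0.348). The day 7 call was lost when any 1 of 7 mice was left out (baseline mice 1, 4 and 8 and day 7 mice 9, 10, 11 and 13), with adjusted p-values up to 0.0667.

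Within a mouse, the ratio of *Ctsb* to *Ctsl* counts was 0.476 to 0.705 at baseline with a median of 0.504, 0.387 to 0.763 at day 7 with a median of 0.471, and 0.509 to 0.622 at day 14 with a median of 0.524. Such a ratio does not depend on how libraries are scaled. The log2 ratio differed from baseline by -0.13 at day 7 (exact two-sided permutation test, p = 0.364, adjusted p = 0.485 over 12 ratio tests). The *Ctsb* to *Ctsd* ratio had a median of 0.655 at baseline, 0.609 at day 7 and 0.614 at day 14. Its log2 difference at day 7 was -0.10 (exact permutation p = 0.0595, adjusted p = 0.221). Without mouse 10 that difference was -0.13 with an adjusted p of 0.041.

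*Ctsz*, *Ctsh* and *Ctsc* encode exopeptidases, which trim proteins from their ends. *Ctsh*, an aminopeptidase (chromosome 9, 90054152 to 90076089, plus strand), had 6.45 to 13.8 CPM at baseline with a median of 7.58, 10 to 20.6 CPM at day 7 with a median of 14.4, and 8.78 to 15.8 CPM at day 14 with a median of 10.5. Baseline mice 4, 5 and 6 were the highest of their group and reached into the day 7 range. The log2 fold change was 0.73 ± 0.17 (SE) at day 7 (adjusted p = 0.00425) and 0.25 ± 0.18 at day 14 (adjusted p = 0.605). *Ctsz*, a carboxypeptidase (chromosome 2, 174427493 to 174439039, minus strand), had 15.5 to 29.5 CPM at baseline, 20.7 to 33.4 CPM at day 7 and 19.7 to 25 CPM at day 14. The highest mouse was baseline mouse 5 in the baseline group and mouse 10 at day 7. Its log2 fold change at day 7 was 0.27 ± 0.11 (adjusted p = 0.0836), and without baseline mouse 5 it was 0.39 (adjusted p = 0.00442). *Ctsc*, the dipeptidyl peptidase that activates serine proteases of immune cell granules (chromosome 7, 88278085 to 88310888, plus strand), had medians of 37.4, 41.8 and 39.7 CPM at baseline, day 7 and day 14. Its log2 fold change at day 7 was 0.14 ± 0.059 (adjusted p = 0.0998).

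*Ctss* and *Ctsk* are neighbours on chromosome 3, 17423 bases apart on the plus strand, and are known for distinct cells: cathepsin S trims the invariant chain in antigen-presenting cells, and cathepsin K degrades collagen and is best known from osteoclasts. *Ctss* (95526786 to 95556403) had 1.56 to 25.4 CPM at baseline with a median of 4.81, 6.68 to 41.3 CPM at day 7 with a median of 14.5, and 3.04 to 21.9 CPM at day 14 with a median of 5.95. The highest mice were mouse 5 at baseline, mice 10 and 15 at day 7 and mouse 21 at day 14, and baseline mice 4 and 5 reached into the day 7 range. *Ctss* had the largest log2 fold change of the 10 genes at day 7, 1.29, but also the largest error (SE 0.53), and it did not pass the test (adjusted p = 0.0981). Without baseline mouse 5 the log2 fold change was 1.93 (adjusted p = 0.0128), and without mouse 10 it was 0.96.

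*Ctsk* (95499256 to 95509362) was the lowest of the 10 genes, with 6 to 15 counts in a baseline mouse, 18 to 36 in a day 7 mouse and 14 to 26 in a day 14 mouse. These are 0.868 to 2.42 CPM at baseline with a median of 1.25, 1.87 to 3.36 CPM at day 7 with a median of 2.27, and 1.57 to 2.76 CPM at day 14 with a median of 1.98. Baseline mouse 7 was the only baseline mouse above the lowest day 7 mouse. The log2 fold change was 0.78 ± 0.19 (SE) at day 7 (adjusted p = 0.00551) and 0.50 ± 0.2 at day 14 (adjusted p = 0.261). The ratio of *Ctsk* to *Ctss* counts within a mouse was 0.0437 to 0.889 in baseline mice and 0.0489 to 0.288 in day 7 mice, and its log2 difference of -0.73 did not pass (exact permutation p = 0.234, adjusted p = 0.4).

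*Ctss* was higher and *Ctsl* lower in the mice with high lymphocyte markers. In the 7 mice with high lymphocyte markers *Ctss* was 10.6 to 25.4 CPM (baseline), 20.9 to 41.3 CPM (day 7) and 14 to 21.9 CPM (day 14), against 1.56 to 5.63, 6.68 to 17.6 and 3.04 to 7.61 CPM in the other mice. *Ctsl* was lower in the same mice, with 193 to 203, 203 to 247 and 216 to 222 CPM against 226 to 276, 280 to 308 and 244 to 253 CPM. At none of the 3 time points did the ranges of the high and the other mice overlap for *Ctss* or *Ctsl*. For *Ctsh* they did not overlap at baseline (12.1 to 13.8 against 6.45 to 10.4 CPM) but did at day 7 (12.6 to 20.6 against 10 to 16.5 CPM). Nor did they overlap for *Ctsb* at baseline (135 to 143 against 122 to 132 CPM) or *Ctsd* at day 14 (199 against 203 to 227 CPM). The share of all tested genes without such an overlap was not computed, and only 2 or 3 mice were high at a time point. These mice also had higher summed dendritic cell and class II markers, 5 of them were high in adipocyte markers, and their macrophage markers summed to 129 and 173 CPM at baseline and 116 and 141 CPM at day 14, above the other mice, while at day 7 the sums overlapped. The part of any of these cells in the time comparisons was not tested. Without the 7 mice *Ctss* rose with a log2 fold change of 1.41 (adjusted p = 0.00826), *Ctsz* with 0.31 (adjusted p = 0.015) and *Ctsl* with 0.21 (adjusted p = 0.00916), while *Ctsk* (0.61, adjusted p = 0.0756), *Ctsd* (0.14, adjusted p = 0.0836) and *Lamp2* (0.15, adjusted p = 0.0746) no longer passed. The counts of 4 genes that rose and 1 that fell were thus as with all mice, but only *Ctsh* and *Lamp1* were called in both. Without the 6 mice high in adipocyte markers, *Ctsl*, *Ctss* and *Ctsh* rose and *Lamp1* fell, and *Ctsk* was at 0.52 (adjusted p = 0.17).

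**Figure D2:**
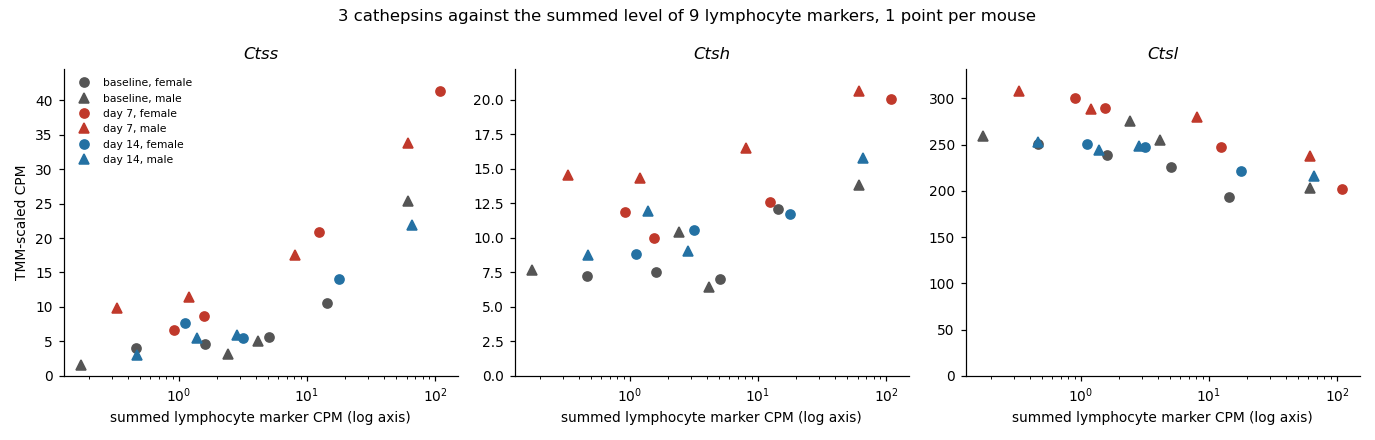
*Ctss*, *Ctsh* and *Ctsl* in TMM-scaled CPM (vertical, linear) against the summed CPM of 9 lymphocyte markers (horizontal, log axis), 1 point per mouse, coloured by time point. *Ctss* is highest in the mice at the right, up to 41.3 CPM in mouse 10, where *Ctsl* is lowest in its time point.

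*Lamp1* fell and *Lamp2* rose at day 7 on the TMM scale, while both rose with total count scaling. *Lamp1* (chromosome 8, 13159161 to 13175338, plus strand) had 188 to 220 CPM at baseline with a median of 199, 156 to 186 CPM at day 7 with a median of 172, and 177 to 194 CPM at day 14 with a median of 182. All 8 day 7 mice were below all 8 baseline mice, and 5 of 7 day 14 mice were below them too. *Lamp1* was the only 1 of the 10 genes whose baseline and day 7 mice did not overlap, beside 2.75% of all tested genes. Its log2 fold change was -0.24 ± 0.051 (SE) at day 7 (adjusted p = 0.00161), but 0.21 with total count scaling (adjusted p = 0.000221). At day 14 it was -0.13 ± 0.053 (adjusted p = 0.265). *Lamp2* (chromosome X, 38401357 to 38456454, minus strand) had 75.8 to 97.6 CPM at baseline with a median of 85.8, 90.5 to 104 CPM at day 7 with a median of 97.8, and 90.4 to 106 CPM at day 14 with a median of 96.9. The post-injury groups lay at the upper end of the baseline range and above it. Its log2 fold change was 0.17 ± 0.052 (SE) at day 7 (adjusted p = 0.0238) and 0.17 ± 0.054 at day 14 (adjusted p = 0.126). The day 7 call of *Lamp2* was lost when any 1 of 6 mice was left out (baseline mice 1, 2, 5 and 8 and day 7 mice 12 and 14), with adjusted p-values up to 0.0617.

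The ratio of *Lamp2* to *Lamp1* counts within a mouse, which no scaling changes, separated day 7 from baseline. It was 0.388 to 0.493 at baseline with a median of 0.437, 0.518 to 0.663 at day 7 with a median of 0.568, and 0.489 to 0.584 at day 14 with a median of 0.53. All 8 day 7 mice and 6 of 7 day 14 mice were above every baseline mouse, and day 14 overlapped with both other groups. The share of other gene pairs whose ratio separates day 7 from baseline was not computed. *Lamp1* alone already separated day 7 from baseline on the TMM scale. The mean log2 ratio of the 8 baseline mice was -1.20 ± 0.10 (SD), that of the 8 day 7 mice -0.80 ± 0.12 and that of the 7 day 14 mice -0.91 ± 0.10. It was higher than baseline by 0.41 at day 7 (exact two-sided permutation test, p = 0.000155, the smallest that these group sizes allow, adjusted p = 0.00186 over 12 ratio tests) and by 0.30 at day 14 (exact permutation p = 0.000622, adjusted p = 0.00373). Both comparisons use the same baseline mice. Day 14 differed from day 7 by -0.11 (exact permutation p = 0.0737, adjusted p = 0.221).

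**Figure D3:**
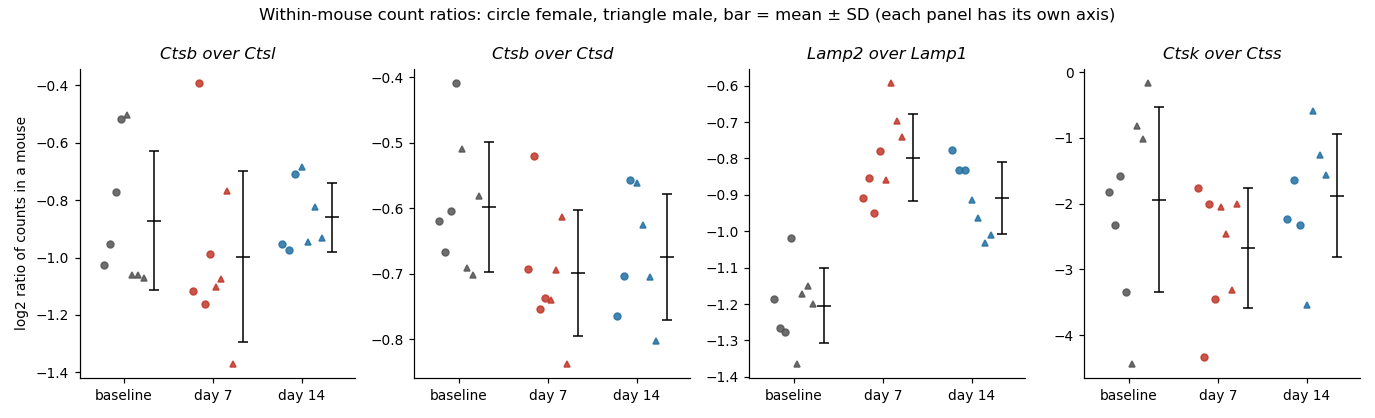
Log2 ratio of the counts of 2 genes within each mouse by time point (circles female, triangles male; bar mean ± SD; each panel has its own axis). In the panel of *Lamp2* over *Lamp1* all 8 day 7 mice lie above all 8 baseline mice; the groups overlap in the other 3 panels.

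The starts of 8 of the 10 genes were matched to RefSeq promoter windows (GRCm38.p6), and *Ctsb* and *Ctsh* have no entry there. They are shown because lysosomal genes share a known promoter element, the CLEAR motif, which holds the E-box CACGTG and is bound by the transcription factor TFEB, and because the *Lamp2* to *Lamp1* ratio differed from baseline at both days. The 250 bases before the start are given 5′ to 3′ on the gene's strand for *Lamp1* (chr8:13158911-13159160, plus) and *Lamp2* (chrX:38456461-38456710, minus), with each CACGTG in capitals.
Lamp1: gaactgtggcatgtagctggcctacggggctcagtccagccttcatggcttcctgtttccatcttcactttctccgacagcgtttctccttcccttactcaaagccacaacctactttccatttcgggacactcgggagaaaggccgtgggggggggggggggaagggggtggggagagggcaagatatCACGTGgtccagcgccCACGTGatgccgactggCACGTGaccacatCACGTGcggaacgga
Lamp2: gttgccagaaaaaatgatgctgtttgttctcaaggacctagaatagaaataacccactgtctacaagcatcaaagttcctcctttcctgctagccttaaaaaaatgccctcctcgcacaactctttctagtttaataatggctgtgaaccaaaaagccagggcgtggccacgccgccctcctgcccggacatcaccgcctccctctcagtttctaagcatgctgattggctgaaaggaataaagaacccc
The *Lamp1* window held 4 E-boxes, whose first bases lie 61, 45, 28 and 15 bases before the start, the *Ctsd* window 2 (245 and 98 bases before), the *Ctsl* window 1 (236 bases before) and the *Lamp2* window 0. In the windows of *Ctsz*, *Ctsk*, *Ctss* and *Ctsc* these letters were not found. Both motifs searched read the same on either strand. Of 32851 windows of 300 bases, 7.15% held CACGTG and 0.0244% held it 4 or more times. The longer form TCACGTGA, which contains the E-box, was found in the *Ctsd* window alone among the 8, 99 bases before the start, and in 0.974% of all windows. Distances are from the RefSeq start, which for *Ctsd* lies 211 bases and for *Ctsl* 370 bases inside the gene as GENCODE gives it above. These matches are letters in a window and were not tested for binding. Their part in the levels of these genes or in the *Lamp2* to *Lamp1* ratio was not tested either.

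At day 14 none of the 10 genes passed the test against baseline (lowest adjusted p = 0.126, for *Lamp2*), beside 1.57% of all tested genes. An unadjusted p under 0.05 was found for 4 of the 10, beside 1619 of all 12195 tested genes. DESeq2 called 1, *Lamp2* (log2 fold change 0.17, adjusted p = 0.041), which also passed with total counts without the 20 most abundant genes (0.19, adjusted p = 0.0472). With total count scaling 5 rose (*Ctsl*, *Ctsb*, *Ctsk*, *Ctsd* and *Lamp2*), and the median of all genes was 0.22. With the TMM scaling the median log2 fold change of the 10 genes was 0.099. In the direct comparison of day 14 with day 7, 0 of 10 genes passed, beside 1.29% of all tested genes (0 of 9 by DESeq2, which gave *Ctsk* no adjusted p). Of the 10, 4 had an unadjusted p under 0.05, beside 1721 of all 12195 tested genes. Levels at day 14 were lower for 8 of 10 and higher for 2. With total count scaling 9 of the 10 fell, while the median log2 difference of all genes moved to -0.25. The largest differences of log2 level were those of *Ctss* (-1.06 ± 0.53 SE, adjusted p = 0.381) and *Ctsh* (-0.48 ± 0.17, adjusted p = 0.178).

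**Figure D4:**
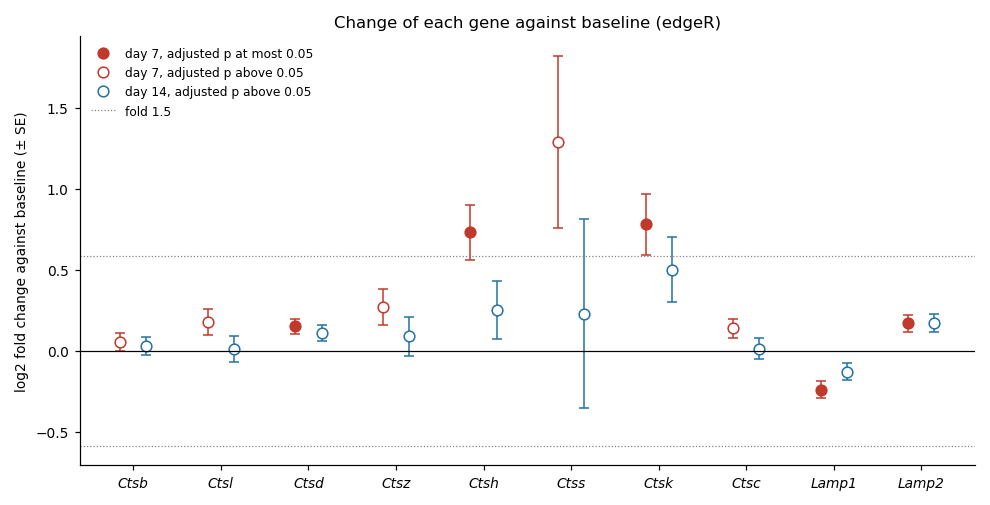
Log2 fold change against baseline (± SE) of each gene at day 7 and day 14, with filled points for an adjusted p of at most 0.05 and dotted lines at a fold of 1.5. *Ctsh* and *Ctsk* pass both thresholds at day 7, *Ctss* is largest at 1.29 with the widest error, and no day 14 point is filled.

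Females and males did not differ in any of the 10 genes by the test (0 of 10 with edgeR and with DESeq2). Of all 12195 tested genes, 34 were higher and 36 lower in males with edgeR. An unadjusted p under 0.05 was found for 1 of the 10 genes and for 1097 of all tested genes. The 1 of the 10 was *Ctsk*, with a mean of 1.7 CPM in females and 2.19 CPM in males (log2 difference 0.35 ± 0.16 SE, adjusted p = 0.508). The change from baseline did not differ by sex either (0 of 10 at both days with edgeR, with DESeq2 and at an unadjusted p under 0.05). Of all 12195 tested genes, 1 passed at day 7 and 0 at day 14 with edgeR, and 683 and 460 had an unadjusted p under 0.05. The errors of these differences were wide for *Ctss*, where the day 7 log2 fold change of males minus that of females was -0.67 ± 1.1 (SE). For *Lamp1* the day 7 log2 fold change was -0.16 in females and -0.31 in males.

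Other genes of the lysosome were counted in 7 lists. Beside the count of each list at day 7 stand 8.86% of all tested genes that rose and 9.7% that fell. With total count scaling 9272 of all 12195 tested genes rose and 64 fell. Of 18 tested further lysosomal membrane genes, 2 rose and 5 fell at day 7 (13 and 0 with total count scaling). Those that fell included *Tpcn1*, a two-pore calcium and sodium channel (log2 fold change -0.57, adjusted p = 0.000127), *Slc36a1*, an amino acid transporter (-0.37, adjusted p = 0.00439), and the tetraspanin *Cd63* (-0.27, adjusted p = 0.00514), while *Laptm4a* rose (0.23, adjusted p = 0.0101). Their median log2 fold change was -0.061. Of 38 lysosomal hydrolases and their cofactors, 4 rose and 4 fell (34 and 0 with total count scaling), with a median of 0.032. The alpha-mannosidase *Man2b1* fell at day 7 (-0.37, adjusted p = 6.83e-05) and at day 14 (-0.24, adjusted p = 0.0341). *Lgmn*, the asparaginyl endopeptidase that processes cathepsins, rose from a median of 5.63 to 12.8 CPM (log2 fold change 1.2, adjusted p = 0.00041), and the carboxypeptidase *Scpep1* rose too (0.46, adjusted p = 0.0192). Over all 7 lists 4 genes were DEGs at day 7, among them *Lgmn* and, named after their values were seen, *Cd68* and *Lipa*, with log2 fold changes of 0.84 and 0.80. *Cd68* is also a macrophage marker, and the macrophage markers summed to 49.2 to 173 CPM in baseline mice and 97.9 to 237 CPM in day 7 mice, with 0 of the 14 markers at 0 in a group. Their part in the rise of these genes, *Ctsh* and *Ctsk* was not tested, nor was that of the fibroblast markers, which summed to 386 to 722 and 696 to 1336 CPM.

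Of 14 genes that sort enzymes to the lysosome, 1 rose and 4 fell at day 7 (13 and 0 with total count scaling). The 4 were the mannose 6-phosphate receptor *Igf2r* (from a median of 139 to 108 CPM; log2 fold change -0.31, adjusted p = 0.000392), the sorting receptor *Sort1* (-0.27, adjusted p = 0.00266), *Gnptg*, a subunit of the enzyme that makes the mannose 6-phosphate tag (-0.32, adjusted p = 0.00832), and the adaptor *Gga2* (-0.26, adjusted p = 0.0125). The other mannose 6-phosphate receptor, *M6pr*, was the 1 that rose (0.22, adjusted p = 0.0351), and it was named after its value was seen. Of 18 subunits of the proton pump that acidifies the lysosome, *Atp6v0e* rose (0.42, adjusted p = 0.0302) and *Atp6v0a1* fell (-0.25, adjusted p = 0.0387), against 17 rising and 0 falling with total count scaling. Of 7 tested protease inhibitors, not all of them known to act on cathepsins, 1 fell. It was the secreted inhibitor *Cst3*, from a median of 209 to 172 CPM (-0.24, adjusted p = 0.0114), while 6 of the 7 rose and 0 fell with total count scaling. Of 6 regulators of lysosomal genes, the TFEB family among them, 1 passed, *Rragc* (-0.17, adjusted p = 0.0446), and 5 rose with total count scaling. Of the 3 other cathepsins with enough counts 0 passed at either day, against 3 at day 7 with total count scaling (adjusted p = 0.794 and 0.651 for *Ctsa* and *Ctsf* at day 7). At day 14 *Man2b1* was the 1 gene of these 7 lists that passed, beside 1.57% of all tested genes.

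The genes whose levels followed each member most closely over the 23 mice were found after the mean of each combination of time and sex was subtracted. For *Ctss* they were *H2-Eb1*, *Syk* and *H2-Ab1* (Pearson's r = 0.98 for each), for *Ctsh* they were *Gsdmd*, *Cd86* and *Csf1r* (r = 0.92 for each), and for *Ctsz* they were *Tgfbr2*, *Tuba1a* and *Pfn1* (r from 0.91 to 0.94). For *Ctsl* they were *Tmed6*, *1110065P20Rik* and *Ppib* (r from 0.93 to 0.94), for *Lamp1* *Coa3*, *Rpl36* and *Creg1* (r from 0.87 to 0.90), and for *Ctsb* *Chd3*, *Tuba1b* and *Net1* (r = 0.87 for each). The closest genes were less alike for *Ctsd* (*Nudt2*, *Phb* and *Dpp3*, r from 0.79 to 0.82), *Lamp2* (*Zfp148*, *Wdr35* and *Tmem65*, r from 0.80 to 0.83), *Ctsc* (*Depdc5*, *Tmem241* and *Pdf*, r from 0.73 to 0.76) and *Ctsk* (*Fkbp14*, *Pon2* and *Apbb3*, r from 0.71 to 0.75). These are descriptions over mice that share libraries, their scaling and their mix of cells.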

How the data were processed

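The deposited values are raw counts: the authors depleted ribosomal RNA, sequenced stranded paired-end libraries, trimmed reads with Trim Galore and cutadapt, aligned them to mm10 with STAR 2.5.2a (per the submitters' processing notes) and counted uniquely mapped fragments per gene with featureCounts. The annotation and strand setting are not given in the sources used here. Without them, it cannot be told how reads were assigned where exons overlap another gene of GENCODE vM21: 12.8% of *Ctsb* exon bases (*Fdft1*, opposite strand), 9.31% of *Lamp1* (*Grtp1*, opposite strand), 34.4% of *Ctsd* (*Gm49369*, same strand), 26.8% of *Ctsl* (*Gm47123*, opposite strand) and 6.09% of *Ctsl* (*Gm49230*, same strand). *Fdft1* and *Grtp1* are among the gene symbols of the count files. *Gm49369*, *Gm47123* and *Gm49230* are not, so no counts were given to those symbols.

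The test over all genes was that of edgeR 4.0.16, run in R 4.3.3 with limma 3.58.1: TMM scaling, filterByExpr, robust quasi-likelihood fit of time and sex on all 23 mice, Benjamini-Hochberg adjustment. Groups came from the labels. "Rose" and "fell" mean an adjusted p of at most 0.05, and DEGs also needed a fold of 1.5. SEs were derived from the test. Ratios used log2 of counts plus 0.5 and exact permutation tests (scipy 1.17.1). DESeq2 1.42.0 and other settings were alternatives. The edgeR and DESeq2 tests against baseline and the permutation test were checked on simulated data. The tests of sex, of the interactions and of day 14 against day 7 were not. In the simulated counts as many genes rose as fell, so the choice of scaling was not checked. The members and lists were chosen with earlier results of these data known. All 10 members are named; in each list up to 4 genes with the smallest adjusted p at day 7 among those passing (otherwise the 2 most abundant), and for each member the 3 genes with the highest correlation. Some listed genes are not reported here. A count of 3, the smallest taken as detectable, is 0.224 to 0.522 CPM, which covers counting error only.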

Additional observations from a re-analysis of the deposited data

Results flagged for a closer look

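*Ctsz* in mouse 10 at day 7 stood apart from its group: its level was 33.4 CPM, while the other 7 mice had 20.7 to 25.8 CPM, and on the log2 CPM scale the gap exceeded Dixon's 95% limit for 8 mice. On that scale it was 1 such value among 42 combinations of gene or ratio and group examined, and chance alone gives about 1 in 20. Mouse 10 also had the highest summed lymphocyte markers of all mice (110 CPM) and the highest *Ctss* (41.3 CPM). The part of these cells in the *Ctsz* value was not tested. Without mouse 10 the log2 fold change of *Ctsz* at day 7 was 0.18.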

How the results depend on the processing

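The number of DEGs among the 10 genes at day 7 was 2, and it was 8 with total count scaling, 1 with at least 10 counts required in every mouse (a filter that removes *Ctss* and *Ctsk*), 0 in females only and in males only, and 5 with no fold threshold. Leaving out 1 mouse at a time gave 2 to 3. At day 14, and for day 14 against day 7, it was 0, with 1 under total count scaling, and 0 for every mouse left out; for sex and for both interactions it was 0 under every alternative run and every mouse left out. In the 7 lists 4 genes were DEGs at day 7, 22 with total count scaling and 24 with no fold threshold; at day 14 these were 0, 2 and 1. Total count scaling moved the median log2 fold change of all genes from 0.022 to 0.47 at day 7, from 0.0062 to 0.22 at day 14 and from -0.015 to -0.25 for day 14 against day 7, and 9272 genes were then called higher and 64 lower at day 7, against 1081 and 1183. Under it *Lamp1* reversed to 0.21 at day 7, 0.088 at day 14 and -0.13 for day 14 against day 7, and *Lamp2* to -0.24 for day 14 against day 7; these shifts are part of the scaling itself. The mean cathepsin share moved from 0.0548%, 0.0853% and 0.0661% to 0.179%, 0.214% and 0.189% without the 20 most abundant genes.

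No *Lamp2* to *Lamp1* call was lost with any mouse left out (0.38 to 0.43 at day 7, 0.27 to 0.32 at day 14); within 1 sex the log2 difference was 0.31 and 0.38 in females and 0.50 and 0.24 in males at day 7 and day 14, with adjusted p-values of 0.343 in females and 0.114 in males (the smallest exact p is 0.0286 for 4 against 4 mice and 0.0571 for 3 against 4), and for day 14 against day 7 it was -0.11, with -0.13 to -0.081 for mice left out and 0.061 in females. Other differences that changed sign did not pass the test. They were, against baseline at day 14, *Ctsl* (-0.053 in males, -0.025 and -0.045 without mice high in lymphocyte or adipocyte markers, -0.024 to 0.042 with 1 mouse left out), *Ctsz* (-0.0073), *Ctss* (-0.023) and *Ctsc* (-0.022) in males, *Ctss* (-0.17 to 0.90) and *Ctsc* (-0.0095 to 0.039) with 1 mouse left out, the *Ctsb* to *Ctsl* ratio (-0.063 in females, -0.018 to 0.063 with 1 mouse left out) and the *Ctsk* to *Ctss* ratio (-0.0019 with a pseudocount of 2, -0.13 in males, -0.30 to 0.34 with 1 mouse left out). For day 14 against day 7 they were *Ctsb* (0.028 in males, 0.0022 and 0.033 without mice high in lymphocyte or adipocyte markers, -0.049 to 0.012 with 1 mouse left out), *Ctsk* (0.025 in females) and *Lamp2* (-0.058 for total counts without the 20 most abundant genes, -0.012 with the stricter filter, -0.00077 without the sex term, -0.00088 with these groups alone, -0.057 in males, -0.015 and -0.0015 without the mice high in markers, -0.018 to 0.019 with 1 mouse left out). The cause of these sign changes was not tested. The day 7 difference of the other ratios ranged from -0.21 to -0.072 (*Ctsb* to *Ctsl*), from -0.13 to -0.074 (*Ctsb* to *Ctsd*) and from -1.09 to -0.48 (*Ctsk* to *Ctss*) with 1 mouse left out. No paired analysis was possible because mouse numbers are not shared between the groups. The mapping rate of the libraries was not used here. In the paper's supplement it was lower in most baseline libraries than in every day 7 library. The shares of reads in untranslated parts of exons also differed between the groups there. The part of these measures in the results, the ratios included, was not tested. The paper left a day 14 female out for a poor mapping rate. *Ctsk*, at 6 to 36 counts a mouse, is the gene whose precision the depth limits most.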
